A study of Mus musculus with 4 samples.

Results

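Satellite glial cells (SGC) form a sheath around the cell body of each sensory neuron in the dorsal root ganglion (DRG). Here they were selected on measured values, by a marker gate applied to single cell RNA-seq of dissociated mouse DRG. A barcode was kept when it had 600 to 15000 unique molecular identifiers (UMIs, each standing for 1 captured RNA molecule), 500 to 4000 genes and less than 10% of its UMIs in mitochondrial genes. It was called gated SGC when *Fabp7*, *Kcnj10*, *Cdh19*, *Mmd2* and *Bcan* together made up at least 0.3% of its UMIs and when it stayed under limits on genes of other cells. These limits were at most 4 UMIs of *C1qa*, *C1qb* and *C1qc*, at most 3 of *Ncmap*, *Prx* and *Mag*, at most 1 of *Scn7a*, none of *Isl1*, and less than 5% hemoglobin UMIs. The gate held 1434 of the 6095 filtered cells, or 23.5%, out of 6975 deposited barcodes.

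The 4 libraries came from C57BL/6 mice of 8 to 12 weeks, and the labels give the tissue as the L4 DRG, where the methods name L4 and L5. The control group was 2 libraries of uninjured ganglia, and the injury group was 2 libraries taken 3 days after sciatic nerve crush. No transgene or drug is named in the labels for any of the 4 libraries. The labels mark 1 library of each condition with the number 2, and the other is called number 1 here. *Xist* UMIs were present in all 4 libraries (3268 and 7220 over the filtered cells of controls 1 and 2, 7376 and 5885 in injury 1 and 2), while the Y-linked genes *Ddx3y* and *Kdm5d* had none, *Eif2s3y* had 1 in control 1 and *Uty* had 1 in control 2. The methods describe cells pooled from several mice for each batch, which the labels do not number, so that p-values measure the spread between libraries only.

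In the ganglion SGC are known as the cells that buffer potassium through the inward rectifier Kir4.1 (*Kcnj10*), take up glutamate and couple to each other through gap junctions. They share a neural crest origin and many genes with Schwann cells, but do not make myelin. Fatty acid binding protein 7 (*Fabp7*), a lipid carrier of immature and non-myelinating glia, is one of their usual markers. Notch signaling, which acts through the DNA-binding protein RBPJ on *Hes* and *Hey* genes, keeps many glial cells in an undifferentiated state.

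Of the 5 marker genes, *Fabp7* was by far the most abundant. Its level in gated SGC was 8166 and 14945 CPM (UMIs summed over the gated cells of a library and scaled to a common total of 1e6) in controls 1 and 2 and 12088 and 14352 CPM in injury 1 and 2. *Mmd2* followed at 1322 CPM as the mean of the 4 libraries. By the same mean the brain proteoglycan *Bcan* had 470 CPM, *Kcnj10* 290.7 CPM and the cadherin *Cdh19* 160.03 CPM. In control 1 *Kcnj10* lay above *Bcan*, with 127 against 97 UMIs. It had 349 against 1340 UMIs in control 2, 608 against 853 in injury 1 and 200 against 598 in injury 2. Since UMIs were counted at the 3′ end, these levels count molecules and were not scaled by gene length. *Fabp7* was found in 99.9% of the gated cells and *Mmd2* in 94.3%, whereas *Kcnj10* was found in 54.9% and *Cdh19* in 40.9%. As the gate used these genes, the values describe it and no test of them is reported.

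Between 0.30% and 0.32% marker UMIs lay 20 gated cells, and 25 cells that met every other limit lay between 0.28% and 0.30%. With the limit at 0.5% the gate held 55 and 420 cells in controls 1 and 2 and 516 and 244 in injury 1 and 2, in place of 80 and 442 and of 649 and 263, so control 1 lost the largest share. Of 1514 filtered cells over the marker share, the limit on *Scn7a* removed 42, that on the C1q genes 19, that on *Isl1* 12, that on the myelin genes 6 and that on hemoglobin 1, counted for each limit by itself.

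The gated cells were then described by a list of glial genes that the gate did not use. This list was chosen with earlier results of these data known. It holds *Hes5*, *Mlc1*, *Rlbp1*, *Tyrp1*, *Aldoc* and *Ptprz1*, which have some of the highest ratios over the other cells. The counts for the list therefore describe the gate and do not test the label. All 24 genes of that list were detected, and the mean level of 23 of them was higher in gated SGC than in all other filtered cells. The exception was *Glul*, glutamine synthetase, which had 534 CPM in gated SGC, or 0.897 times the level of the other cells. The glial transcription factor *Sox10* had 238.6 CPM and was 8.04 times higher than in the other cells. It marks peripheral glia as a class. At 1000 UMIs per cell it was found in 20.6% of gated SGC, 24.4% of gated myelinating Schwann cells and 20.2% of the cells gated on *Scn7a*, so it does not set SGC apart from these. Markers of myelinating Schwann cells summed to between 24.4 and 56.5 CPM per library. The gate bounds 3 of these 8 genes, so this sum is partly set by it and is no check of the label. *Cldn19*, a tight-junction gene of myelinating Schwann cells that the gate did not use, had 14.1 and 5.22 CPM in controls 1 and 2 and 4.62 and 3.59 CPM in injury 1 and 2.

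Among all genes outside the mitochondrial and ribosomal protein groups, the lipid carrier *Apoe* stood first. Its level was 62966 and 93204 CPM in controls 1 and 2 and 83660 and 90579 CPM in injury 1 and 2. It was followed by the nuclear RNA *Malat1* (58669 CPM as a mean of 4 libraries), the acyl-CoA binding protein *Dbi* (17711 CPM) and *Fabp7* (12388 CPM). *Sparc*, a matrix protein, had 4077 CPM, the intermediate filament *Vim* 3703 CPM and the membrane protein *Gpm6b* 3437 CPM.

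Among genes with a mean of at least 50 CPM, the highest ratios over the other filtered cells were led by *Hes5*, a target of Notch, at 59.4 times their level. *Hes5* was at 75.4 and 129.1 CPM in controls 1 and 2 and at 67.1 and 114.2 CPM in injury 1 and 2. The ratio was 46.7 for *Mlc1*, a membrane protein of astrocytes, 32.1 for *Rlbp1*, a retinaldehyde binding protein, and 30.8 for *Acsbg1*, which activates long fatty acids. *Aldoc*, the aldolase of astrocytes, had a ratio of 25.6, the phosphatase *Ptprz1* 24.4 and *Lect1*, also called chondromodulin, 21.7. Being ratios against cells that the gate left out, they are descriptions with no test. In the cells gated on *Scn7a* the mean was 242.5 CPM for *Aldoc*, 89.2 for *Ptprz1* and 82.5 for *Lect1*. In gated SGC these 3 genes had 760.2, 188.4 and 254.4 CPM. *Hes5*, *Mlc1*, *Rlbp1* and *Acsbg1* had 14.3, 26.0, 15.2 and 216.9 CPM in the cells gated on *Scn7a*, against 96.5, 70.3, 99.99 and 534.2 CPM.

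**Figure D1:**
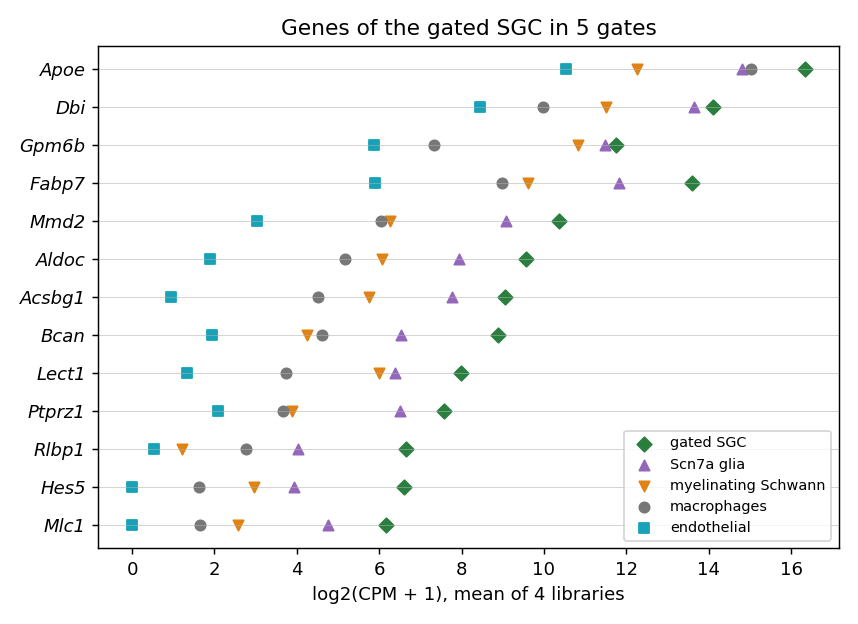
Level of 13 genes on the log2(CPM + 1) scale (x axis, mean of 4 libraries) in gated SGC, cells gated on *Scn7a*, myelinating Schwann cells, macrophages and endothelial cells. Gated SGC lie farthest to the right for every gene shown, with *Apoe* at 82602 CPM and *Mlc1* at 70.3 CPM.

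The sequences before *Fabp7* and *Hes5* are shown because *Fabp7* leads the markers and *Hes5* the ratios. Each is the 250 bases upstream of the RefSeq start in GRCm38.p6 (mm10), 5′ to 3′ on the gene's strand, with the RBPJ core TGGGAA in capitals on either strand. *Fabp7* lies on the plus strand (chr10:57784673-57784922) and *Hes5* on the plus strand (chr4:154960673-154960922).
Fabp7: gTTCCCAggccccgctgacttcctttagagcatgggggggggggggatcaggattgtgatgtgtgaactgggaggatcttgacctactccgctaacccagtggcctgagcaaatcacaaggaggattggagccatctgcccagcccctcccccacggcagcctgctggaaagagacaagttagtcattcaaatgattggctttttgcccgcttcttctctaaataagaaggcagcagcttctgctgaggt
Hes5: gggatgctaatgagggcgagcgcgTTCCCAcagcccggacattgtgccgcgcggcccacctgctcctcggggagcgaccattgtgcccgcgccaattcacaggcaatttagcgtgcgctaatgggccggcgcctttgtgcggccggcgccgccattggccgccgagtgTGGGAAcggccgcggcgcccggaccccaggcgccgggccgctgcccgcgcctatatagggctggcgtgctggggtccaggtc
The core occurred 1 time before *Fabp7*, ending 244 bases before the start, and 2 times before *Hes5*, ending 221 and 77 bases before it. Over all 32851 promoters of the table, 21.6% held the core in a window of the same length, so that a match describes the letters and not a bound site.

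Of the 21 genes of the Notch list, 20 had a UMI in gated SGC. *Nrarp*, a feedback inhibitor of the pathway, was highest at 173.7 CPM, followed by the Notch target *Hey2* at 150.8 CPM and *Hes1* at 142.2 CPM. *Hey2* was 17.5 times higher than in the other cells and *Hes1* was 0.522 times their level. The receptor *Notch1* was at 75.7 CPM and the ligand *Jag1* at 64.8 CPM.

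Lists of lipid synthesis had summed levels above those of the other gates. Fatty acid synthesis genes summed to between 4576 and 6342 CPM per library, against means of 3659 CPM in myelinating Schwann cells and 3085 CPM in the cells gated on *Scn7a*. Cholesterol genes summed to between 4524 and 7444 CPM, against 3591 and 2091 CPM. *Hmgcs1*, which makes the precursor of mevalonate, had 1127 CPM and was 10.6 times higher than in the other cells, and *Fdps*, a later enzyme of cholesterol synthesis, had 1060 CPM. The desaturases *Scd2* and *Scd1* had 1238 and 609 CPM. *Fasn*, the fatty acid synthase, was found in 29.1% of gated cells and in 7.67% after each cell was thinned to 1000 UMIs. *Ppara* had 42 UMIs in 42 of 1434 cells (2.93%).

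Before the conditions were compared, the libraries were compared with each other. Gated SGC numbered 80 of 1301 filtered cells in control 1, 442 of 1341 in control 2, 649 of 2377 in injury 1 and 263 of 1076 in injury 2. The UMIs behind each sum were 212210, 2106799, 2383182 and 1392731 in that order, so that control 1 was the least precise library. Median UMIs per gated cell were 2240.5 and 4312.5 in controls 1 and 2 and 3004 and 4947 in injury 1 and 2. Median mitochondrial shares were 4.82% and 7.97% in controls 1 and 2 and 5.89% and 7.48% in injury 1 and 2. In both measures the libraries numbered 2 lay above those numbered 1.

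The libraries numbered 2 lay closest to each other. On the first principal component, which held 72.8% of the variance, control 2 and injury 2 both lay at 11.6, injury 1 at -3.31 and control 1 at -19.9. Across genes, Pearson's r of log2 CPM was 0.984 between control 2 and injury 2, and 0.951 and 0.946 between injury 1 and each of these. It was 0.939 between control 1 and injury 1, 0.887 between control 1 and injury 2 and 0.885 between controls 1 and 2, so that control 1 stood farthest from the rest. These values are descriptions, since genes are not independent. Summed immediate early and stress genes, which respond within minutes to many stimuli, had 20395 and 5622 CPM in controls 1 and 2 and 10692 and 6650 CPM in injury 1 and 2. *Fos*, the leading gene of that list, had 5141 and 1093 CPM in controls 1 and 2 and 2869 and 1269 CPM in injury 1 and 2. The summed cholesterol genes ran the other way, with 5066 and 7444 CPM in controls 1 and 2 and 4524 and 7129 CPM in injury 1 and 2.

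Of 2803 genes considered, 3 were at least 4-fold higher and 3 at least 4-fold lower in the library numbered 2 in both conditions. *Atp5l*, a subunit of ATP synthase, had 18.8 and 321 CPM in controls 1 and 2 and 14.7 and 766 CPM in injury 1 and 2. The histone gene *Hist2h2aa2* had 0 and 52.2 CPM in controls 1 and 2 and 0.42 and 152.2 CPM in injury 1 and 2. *Atp5l* had 9.54 and 226 CPM in the endothelial cells of controls 1 and 2, so the difference was not limited to SGC. The 3 lower genes were *Atf3*, *Egr2*, both immediate early factors, and the integrin *Itgb3*. The same limit met by injury over control in both numbers gave 1 gene higher, *Serpina3n*, and 0 lower. The part of the library number in the results that follow was not tested beyond the fits with a replicate block and without single libraries.

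Over all pairs of libraries 20 barcodes were shared, and 1 of these was gated in both libraries. Scrublet marked 42 barcodes as doublets (0.602%), of which 11 were in the gate. Markers of other cells were measured in gated SGC as summed levels. Macrophage markers summed to 118 and 51.7 CPM in controls 1 and 2 and 80.6 and 198 CPM in injury 1 and 2, led by *Lyz2*, with 12 of 13 genes detected and *Cd163* at 0. The gate caps the C1q genes in this list, so their part of the sum is limited by it. *Lyz2*, which the gate did not use, had 61.3 and 11.4 CPM in controls 1 and 2 and 26.9 and 76.8 CPM in injury 1 and 2. Neuron markers summed to 891 and 2733 CPM in controls 1 and 2 and 1728 and 2414 CPM in injury 1 and 2, mostly *Sncg*, with 14 of 15 genes detected and *Isl1* at 0 by the gate. *Sncg* had 754 and 2455 CPM in controls 1 and 2 and 1621 and 2161 CPM in injury 1 and 2. The mean sum of neuron markers was 2535 CPM in myelinating Schwann cells, 625 CPM in the cells gated on *Scn7a* and 341 CPM in gated macrophages. Fibroblast markers, led by *Gsn*, lay between 1325 and 2195 CPM, with *Dpt* at 0. Their mean sum was 2190 CPM in myelinating Schwann cells and 11247 CPM in the cells gated on *Scn7a*. It was 1232 CPM in macrophages and 1022 CPM in endothelial cells. The part of these other markers in the results was not tested. Endothelial markers summed to at most 113 CPM, mural cell markers to at most 164 CPM, neutrophil markers to at most 236 CPM and erythroid markers to at most 149 CPM in any library. None of *Cd3d*, *Cd3e*, *Cd3g* or *Trac* of T cells was detected.

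The share of filtered cells in the gate was 6.15% in control 1 (95% exact binomial interval 4.91 to 7.59), 33.0% in control 2 (30.4 to 35.5), 27.3% in injury 1 (25.5 to 29.1) and 24.4% in injury 2 (21.9 to 27.1). These intervals cover counting error only. The injury libraries lay between the control libraries, so the groups overlapped. The mean was 19.6% ± 19.0 in control and 25.9% ± 2.02 after injury (SD, n = 2 libraries each), a difference of 6.32 percentage points that was smaller than the spread between controls (exact permutation test, two-sided, p = 1.0). With 2 libraries against 2 this test cannot reach 0.05 (the smallest p it allows is 1 in 3). Between the libraries numbered 1 the share was 21.2 points higher after injury, and between those numbered 2 the difference was -8.52 points. Without control 1 the difference was -7.09 points and without control 2 it was 19.7 points.

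**Figure D2:**
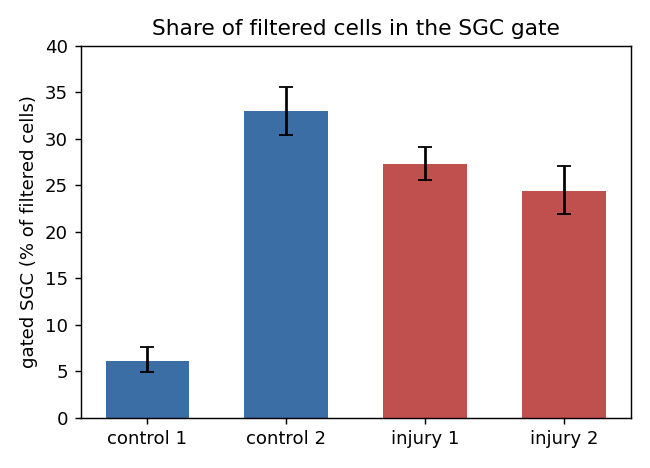
Gated SGC as percent of filtered cells (y axis) in each of 4 libraries, with 95% exact binomial intervals as error bars. Control 1 stands at 6.15%, below the other 3 libraries, which lie between 24.4% and 33.0%.

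Injury was then compared with control within gated SGC, on UMIs summed per library (edgeR's quasi-likelihood test, n = 2 libraries per condition). The leading gene was *Serpina3n*, a secreted serine protease inhibitor of the acute phase response. Its level was 9.42 and 13.8 CPM in controls 1 and 2, and 160.3 and 101.2 CPM in injury 1 and 2. Both injury libraries lay well above both control libraries. The log2 fold change was 3.37 (SE 0.36), and edgeR's adjusted p of 0.0626 missed the threshold of 0.05. SE here is an equivalent of a standard error. It was taken as the size of the log2 fold change over the square root of the F statistic of edgeR's test. A gene was called when its adjusted p was below 0.05 with a log2 fold change of 2 or more in size, and 0 (0%) of the 9086 genes tested were. Before adjustment 98 genes (1.08%) had a p below 0.05, 47 higher and 51 lower, and DESeq2 called 1 gene, *Serpina3n*. The call turned on the settings used, also with all 4 libraries kept. With a replicate block, which pairs libraries of the same number, edgeR's adjusted p of *Serpina3n* was 0.00334. It was 0.0321 with a marker share of at least 0.5%, 0.155 with the C1q genes at 0 and 0.505 with cells thinned to 1000 UMIs. The log2 fold change was 3.28 without control 1, 3.97 without control 2, 3.01 without injury 1 and 3.67 without injury 2.

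*Serpina3n* was found in more cells after injury as well as at a higher level. At 1000 UMIs per cell it was found in 0% and 1.13% of gated cells in controls 1 and 2 and in 9.71% and 9.89% in injury 1 and 2. Without thinning the shares were 1.25% and 5.66% in controls 1 and 2 and 25.9% and 28.9% in injury 1 and 2. In gated macrophages, at a median depth of 2994 to 4930 UMIs per library, the unthinned share was at most 1.45%. The cells gated on *Scn7a*, another glial gate of 100 cells, held the gene too. Without thinning it was found in 2 of 24 and 2 of 11 of these cells in controls 1 and 2 and in 9 of 53 and 6 of 12 in injury 1 and 2, and their mean level was 105 CPM.

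The sequence before *Serpina3n* is shown because this gene had the smallest p. It lies on the plus strand (chr12:104406458-104406707, GRCm38.p6, RefSeq) and is given as the 250 bases upstream of the start, 5′ to 3′.
Serpina3n: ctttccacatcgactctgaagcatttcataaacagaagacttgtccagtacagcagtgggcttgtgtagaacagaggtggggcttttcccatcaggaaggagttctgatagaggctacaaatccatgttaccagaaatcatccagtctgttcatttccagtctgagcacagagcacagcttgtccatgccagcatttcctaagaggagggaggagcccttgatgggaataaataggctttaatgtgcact
The motif of STAT factors, which act in acute phase signaling, was searched as TTCNNNGAA on both strands. It had 0 matches in this window, and 7.02% of all 32851 promoters of the same length held it, which says only that these letters are not in the window shown.

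Next in order of p was *Srgn*, the proteoglycan serglycin of secretory granules. It had 4.71 and 12.3 CPM in controls 1 and 2 and 46.2 and 50.3 CPM in injury 1 and 2, with a log2 fold change of 2.15 (SE 0.39). *Srgn* was at 577 CPM in gated macrophages and 732 CPM in endothelial cells. Of the macrophage markers 3 were tested, with log2 fold changes from 0.54 (*Tyrobp*) to 2.42 (*Fcer1g*) and a median of 1.27. That median was 0.17 between the libraries numbered 1 and 2.71 between those numbered 2. For such ratios the CPM of 1 UMI in the library was added to each level. This was 4.71 CPM in control 1 and 0.42 CPM in injury 1, which lowers the ratios of genes with few UMIs in that pair. The groups did not overlap in *Fcer1g*, and they overlapped in *Lyz2* and in the sum of the list. Cells without any C1q UMI made up 76.4% of gated cells in injury 2, against 90.0% in control 1, 92.5% in control 2 and 90.9% in injury 1. The part of these markers in the *Srgn* result was not tested. In gated cells without any C1q UMI the log2 fold change of *Srgn* was 1.89. Complement component *C4b* had 23.6 and 12.3 CPM in controls 1 and 2 and 84.8 and 43.8 CPM in injury 1 and 2, a log2 fold change of 2.22 (SE 0.45). It was at 195.9 CPM in the cells gated on *Scn7a*, at 34.5 CPM in macrophages and at 0 in endothelial cells. Neither gene passed the threshold (adjusted p = 1.00 for both, edgeR). With no filter on low counts edgeR's adjusted p was 0.00131 for *Srgn* and 0.00011 for *C4b*, and without injury 2 it was 0.176 and 0.00207.

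*Ifitm3*, an interferon-induced membrane protein, was the most abundant of the leading genes. It had 815 and 826 CPM in controls 1 and 2 and 1366 and 1452 CPM in injury 1 and 2, a log2 fold change of 0.87 (SE 0.25). The groups did not overlap, which the rule for named genes required, and the spread within each was small. The adjusted p of *Ifitm3* was 1.00 (edgeR). *Lect1*, one of the genes with the highest ratios over other cells, had 141.4 and 226.4 CPM in controls 1 and 2 and 313.03 and 336.7 CPM in injury 1 and 2. The other genes among the 12 with the smallest p on the higher side were *Tmem176a*, *Anxa4*, *Hmgn5*, *Tagln2*, *Scarb2*, *Hfe* and *Ppp2r2a*, with log2 fold changes between 0.60 and 1.03.

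On the lower side, *Rnaset2a*, a gene of the RNase T2 family, had 66.0 and 61.2 CPM in controls 1 and 2 and 29.8 and 12.2 CPM in injury 1 and 2. Its log2 fold change was -1.46 (SE 0.40) and lay between -2.28 and -1.01 over the alternatives. *Rnaset2b*, a near-identical copy with which reads can be shared, had a log2 fold change of -1.29, so the split between the copies is uncertain. In gated macrophages *Rnaset2a* had 153.9 and 170.5 CPM in controls 1 and 2 and 88.1 and 35.3 CPM in injury 1 and 2, and the difference between the responses of the cell types was -0.018 on the log2 scale (SE 0.31). *Trf*, transferrin, the iron carrier, had 51.8 and 93.03 CPM in controls 1 and 2 and 34.4 and 33.03 CPM in injury 1 and 2, a log2 fold change of -1.17 (SE 0.33). That value was -0.16 with a marker share of at least 0.2% of UMI and -0.43 without control 2. The cells gated on *Scn7a* had 24.8 and 114.7 CPM of *Trf* in controls 1 and 2, from 24 and 11 cells. They had higher values of 780 and 811 CPM in injury 1 and 2, from 53 and 12 cells. The control values rest on few UMIs, and this difference was not tested. The mean of *Trf* in macrophages was 976 CPM. The other lower genes by the same rule were *Col1a1*, *Fam219a*, *Larp4*, *Cdk2ap1*, *Rpl23a-ps3*, *Fbxo11*, *Id1*, *Arhgap39* and *Cggbp1*, with log2 fold changes between -1.17 and -0.63. Without control 2 *Col1a1* and *Cdk2ap1* turned direction, to 0.051 and 0.11, and over the alternatives *Id1* reached -0.29. None of these genes passed the threshold.

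**Figure D3:**
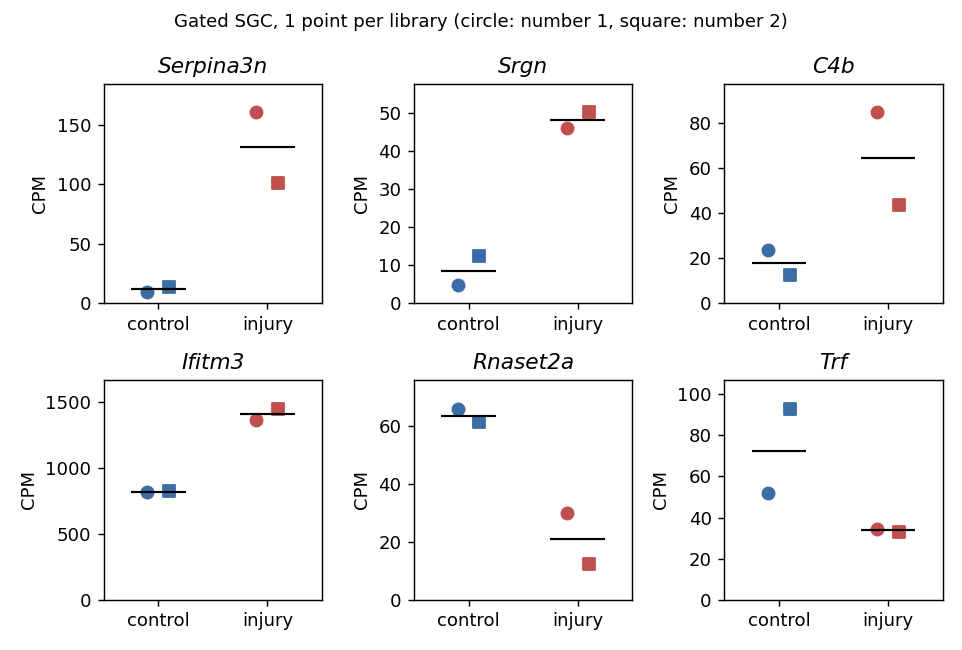
Level in CPM (y axis) of 6 genes in gated SGC, with 1 point per library (circles for libraries numbered 1, squares for those numbered 2) and a line at the mean of each condition. The injury points of *Serpina3n* lie at 160.3 and 101.2 CPM and its control points at 9.42 and 13.8 CPM. The rule for named genes kept only genes whose conditions do not overlap, and in none of the 6 genes do they.

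Across all genes tested, both injury libraries lay above both control libraries in 949 (10.4%) and below them in 1363 (15%), and the median log2 fold change was 0.01. The median log2 ratio of CPM, after adding 1 UMI per library as above, was -0.32 between the libraries numbered 1. It was -0.01 between those numbered 2. The added UMI was 4.71 CPM in control 1 and 0.42 CPM in injury 1, so -0.32 is no measure of a general drop. The medians of lists between the libraries numbered 1 carry this offset too, more so for genes with few UMIs. These shares are the background for the gene lists. Of 27 tested genes of glial injury and the acute phase, 9 lay above and 4 below, with a median log2 fold change of 0.11. Besides *Serpina3n* and *C4b* the list held *Gfap*, the intermediate filament of reactive glia, with 0 and 1 UMIs in controls 1 and 2 and 56 and 9 UMIs in injury 1 and 2. *Gfap* was found in 6.16% of gated cells in injury 1 and 2.66% in injury 2, against 0 of 80 cells in control 1, where a count of 0 leaves room for 3.75% with a UMI at that library's depth, and 0.226% in control 2. In the cells gated on *Scn7a* it was found in 8 of 53 and 2 of 12 cells of injury 1 and 2. It was found in 0 of 24 and 0 of 11 of these cells in controls 1 and 2, counts that leave room for 12.5% and 27.3%. *Vim* overlapped between conditions, with 3723 and 2637 CPM in controls 1 and 2 and 4997 and 3457 CPM in injury 1 and 2. *Timp1*, an inhibitor of matrix proteases, had 14.1 and 8.07 CPM in controls 1 and 2 and 26.4 and 19.4 CPM in injury 1 and 2.

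In the fit over all 4 libraries, genes of lipid metabolism had medians near that of all genes. For fatty acid synthesis 25 genes were tested, 3 lay above and 1 below, and the median log2 fold change was 0.04. Cholesterol synthesis and uptake had 24 genes tested, 0 above and 4 below, and a median of -0.09. The list of PPAR targets and fatty acid oxidation had 27 genes tested, 5 above and 4 below, and a median of 0.09. Between the libraries numbered 1 and those numbered 2 the medians were 0.17 and -0.10 for fatty acid synthesis and -0.16 and -0.11 for cholesterol. They were -0.13 and 0.03 for the PPAR list, against -0.32 and -0.01 for all genes tested. Within the PPAR list *Angptl4*, a lipase inhibitor and known PPAR target, had 89.5 and 130.1 CPM in controls 1 and 2 and 162 and 159.4 CPM in injury 1 and 2 (log2 fold change 0.55, SE 0.27). *Rxrb*, a partner receptor of PPARs, had 33.0 and 34.7 CPM in controls 1 and 2 and 15.1 and 20.8 CPM in injury 1 and 2. None of the genes on these lists was called.

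Of the carriers of fatty acids and sterols, 4 of 12 tested lay above and 0 below, with a median log2 fold change of 0.19. The median was 0.32 between the libraries numbered 1 and 0.04 between those numbered 2. *Dbi* had 15461 and 15682 CPM in controls 1 and 2 and 21413 and 18287 CPM in injury 1 and 2. *Fabp5* had 358 and 402 CPM in controls 1 and 2 and 580 and 466 CPM in injury 1 and 2. *Apoe* overlapped between conditions.

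Notch genes had 0 above and 4 below of 14 tested, with a median log2 fold change of -0.20. The 4 were the ligand *Jag1*, the receptor *Notch2*, the inhibitor *Numb* and the target *Hes1*, and *Hes5* and *Hey2* overlapped. Glial transcription factors had 0 above and 5 below of 22 tested, with a median of -0.17. Potassium and water handling genes had 0 above and 1 below of 16 tested, with a median of -0.12. Interferon genes had 4 above and 1 below of 18 tested, with a median of 0.19, which was -0.22 between the libraries numbered 1 and 0.23 between those numbered 2. Immediate early and stress genes had 0 above and 1 below of 22 tested and a median of -0.45. That median was -1.03 between the libraries numbered 1 and 0.15 between those numbered 2, so its direction turned with the pair.

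Cell cycle genes had 3 above and 1 below of 15 tested, with a median log2 fold change of 0.39. The median was -1.32 between the libraries numbered 1 and 0.83 between those numbered 2. Many genes of this list had few UMIs, and the added UMI draws these below 0 in the first pair. No direction is read from the -1.32. All 21 genes of the list were detected, and their sum lay between 475 and 665 CPM, led by the tubulin gene *Tubb4b*. *Pcna*, a factor of DNA replication and repair, was found at 1000 UMIs per cell in 8.75% and 6.11% of gated cells in controls 1 and 2 and in 3.70% and 6.08% in injury 1 and 2. The genes of dividing cells were rare. *Mki67* had 10 UMIs in 6 of 1434 gated cells, with 0 and 3 UMIs in controls 1 and 2 and 0 and 7 in injury 1 and 2. *Top2a* had 0 and 17 UMIs in controls 1 and 2 and 1 and 23 in injury 1 and 2, so the counts followed the library number. At 1000 UMIs per cell *Cdk1* was found in 0% and 0.452% of gated cells in controls 1 and 2 and in 0% and 1.14% in injury 1 and 2, against 1.45% and 4.35% of macrophages in injury 1 and 2.

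**Figure D4:**
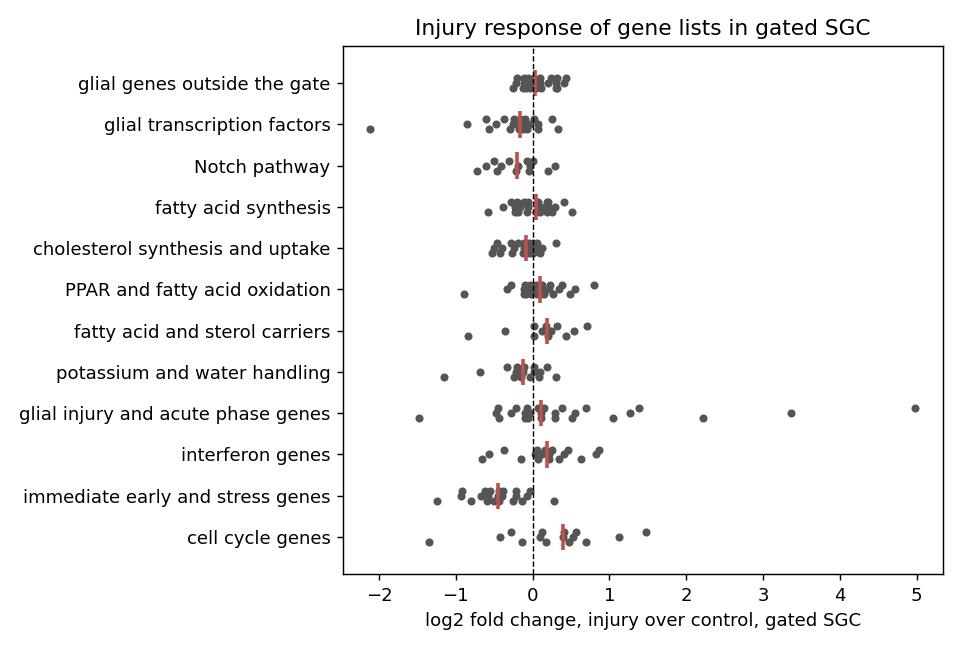
Log2 fold change of injury over control in gated SGC (x axis) for the tested members of 12 gene lists, with 1 point per gene, a red line at each list's median and a dashed line at the median of all 9086 genes (0.01). In the acute phase list *Gfap* lies at 4.98, a fitted value over 0 and 1 UMIs in controls 1 and 2 that gives no exact fold. *Serpina3n* of that list lies at 3.37. The immediate early list has its median at -0.45, a value that was 0.15 between the libraries numbered 2.

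Finally, the injury response of gated SGC was set against that of other gates in 1 fit over 8500 genes. The other gates held 409 endothelial cells, 1019 macrophages and 228 myelinating Schwann cells. By the same rule for calls, applied to the difference of responses, 0 genes (0%) differed against each of the 3 (edgeR). Before adjustment a p below 0.05 was reached by 165 genes against endothelial cells, 379 against macrophages and 221 against Schwann cells.

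Against macrophages the smallest p over all genes was that of *Acox3*, a peroxisomal oxidase of branched lipids, with a log2 difference of 3.13 (SE 0.52, adjusted p = 0.0622, edgeR). *Acox3* had 4.71 and 10.4 CPM in gated SGC of controls 1 and 2 and 25.2 and 24.4 CPM in those of injury 1 and 2. Against endothelial cells it was that of the chemokine *Cxcl1* (adjusted p = 0.964, edgeR). Both had a mean under 20 CPM in gated SGC. Of the genes at or above that level, *Serpina3n* had the smallest p on the higher side against endothelial cells, with 0 and 6.14 CPM in endothelial cells of controls 1 and 2 and 0 and 1.82 CPM in those of injury 1 and 2. The response of *Serpina3n* differed by 5.31 (SE 1.48) from that of endothelial cells, by 2.84 (SE 1.66) from that of macrophages and by -1.79 (SE 3.24) from that of Schwann cells, in which the gene had 2 UMIs in all. Against macrophages, at the same level limit, *Ctsd*, the lysosomal protease cathepsin D, was level in gated SGC (457.1 and 468 CPM in controls 1 and 2, 469.1 and 468.9 in injury 1 and 2). In macrophages *Ctsd* had 1796 and 1426 CPM in injury 1 and 2, against 620 and 421.3 CPM in controls 1 and 2, and the responses differed by -1.47 on the log2 scale (SE 0.33). *Isg15*, an interferon-induced protein, differed by 1.40 (SE 0.31), with lower values after injury in macrophages and overlapping ones in gated SGC. Against Schwann cells the class I gene *H2-D1* differed by 1.27 (SE 0.26) and *Pdlim4* by -2.41 (SE 0.56). None of these differences passed the threshold, and a p that misses it does not show that the responses were alike.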

How the data were processed

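The authors deposited raw UMI counts per gene and barcode for 4 10x libraries. The submitters' processing notes name Cell Ranger, Partek and the build mm10, and the methods give Cell Ranger as the source of the matrices. The deposited matrices carry no cell names, so SGC were found by the marker gate, which was chosen, like the gene lists and the rule for named genes, with earlier results of these data known. UMIs of gated cells were summed per library (212210 to 2383182 UMIs) and tested with edgeR 4.0.16 (TMM scaling, filterByExpr, quasi-likelihood fit, Benjamini-Hochberg adjustment). A call needed an adjusted p below 0.05 with a log2 fold change of 2 or more in size. The fit and the adjustment held the 9099 genes that passed the low-count filter. No test is reported for the 13 of these that the gate bounds, which leaves 9086. Named genes had a mean of at least 20 CPM and groups that did not overlap, and the 12 with the smallest p in each direction were taken. Differences between gates were tested in 1 fit with an interaction. The code was tested on simulated data. Alternatives were other gate limits, doublet removal, RLE size factors, DESeq2 1.42.0, no low-count filter, thinning to 1000 UMIs per cell, a replicate block and leaving out each library. Values of a few genes are not reported here.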

Additional observations from a re-analysis of the deposited data

How the results depend on the processing

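The count of genes called for injury in gated SGC was 0 in the reported fit. It stayed 0 with RLE size factors, a marker share of 0.2%, the C1q genes at 0, doublets removed, cells thinned to 1000 UMIs and an adjusted p under 0.05 alone. It was 1 with DESeq2, 1 with a marker share of 0.5% and 1 with a replicate block, in each case *Serpina3n* (edgeR's adjusted p was 0.00334 with the block), and 6 with no filter on low counts (4 higher, 2 lower), *Serpina3n*, *Gfap*, *C4b*, *Srgn*, *Spock2* and *Igf1*. Leaving out 1 library gave 0 to 13 calls: 13 without injury 2 (3 higher, 10 lower, with *Serpina3n*, *Gfap* and *C4b* among them), 2 without injury 1 and 0 without either control. The replicate block rests on 2 pairs whose shared origin the labels do not state. Deviations of libraries with the same number correlated at 0.534. Against macrophages the count of 0 became 1 with RLE size factors, 4 with no filter and 0 to 3 without single libraries. Against Schwann cells it became 5 with no filter and 0 to 2 without single libraries, and against endothelial cells 1 with no filter and 0 to 0 without single libraries. The lone library of a condition was then assumed to vary like the others. The difference in gated share lay between -7.09 and 19.7 points without single libraries. Over the alternatives the log2 fold change of *Serpina3n* lay between 3.01 and 3.97, that of *Srgn* between 1.89 and 3.51, that of *C4b* between 1.62 and 3.05, that of *Anxa4* between 0.75 and 2.34, that of *Trf* between -1.43 and -0.16, that of *Rnaset2b* between -2.39 and -0.73 and that of *Id1* between -1.18 and -0.29. *Col1a1* and *Cdk2ap1* turned direction without control 2, and ranged from -1.46 to 0.051 and from -1.49 to 0.11 without single libraries. The causes were not tested. Control 1, with 80 cells, limits the depth of every comparison.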

Other observations

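With every cell thinned to 1000 UMIs, *Apoe*, *Malat1* and *Apod* led gated SGC on the mean of the 4 libraries' ratios of variance to mean. The ratio of variance to mean over cells, which is near 1 for counting error alone, had a median of 1.02 over 1552 genes. *Apod*, a lipid carrier, reached a ratio of 28.3 in control 2 and 21.05 in injury 1, against 1.23 in control 1 and 1.11 in injury 2. *Dcn*, a proteoglycan of fibroblasts, had ratios of 21.7 in control 2 and 8.86 in injury 1, against 0.937 in control 1 and 2.35 in injury 2. *Ifi27l2a*, an interferon-induced gene, was most variable in control 1, at 13.04.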
